A study of Caenorhabditis elegans with 27 samples.

Results

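The nuclear hormone receptors of Caenorhabditis elegans were followed through 9 groups of whole worms profiled on Affymetrix expression arrays. A probe set, the group of short probes that together read 1 transcript, was taken as a receptor where the platform annotation tied it to a single gene whose symbol starts with nhr-, or to daf-12, odr-7, sex-1, unc-55 or fax-1. A log2 value over 5 on at least 3 of the 27 arrays was also required. The array held 302 such probe sets for 259 genes, and 91 probe sets of 73 genes passed the filter, out of 11102 probe sets tested in all. The remaining 211 receptor probe sets stayed under the filter, and 14 further sets that match a receptor together with another gene were not counted as members. Closest to the limit, the third highest array was at log2 5.05 for nhr-110, 5.07 for nhr-133 and 5.08 for nhr-212 among the sets that passed. It lay just under 5 for nhr-177, at 4.95 for nhr-19 and at 4.86 for nhr-232 among those that did not.

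Nuclear hormone receptors are transcription factors with a zinc finger domain that binds DNA and a pocket that can hold a small lipid-like molecule. The nematode family is unusually large, because relatives of the vertebrate receptor HNF4 multiplied, and most of its members have no known ligand. The receptors with known roles act in sterol signalling, fat metabolism, the breakdown of propionate, the handling of foreign compounds, moulting and sex determination, and many act in the intestine.

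All worms were of strain GE24, which carries pha-1(e2123), a temperature-sensitive allele whose embryos die at the restrictive temperature, and the untreated controls carried it too. In the first experiment the worms received 0, 0.2 or 2.0 mM HuminFeed (HF), a humic substance preparation, dosed as dissolved organic carbon, and were harvested after 3 days. The second experiment used the same HF doses and a harvest at 11 days. The third gave 0, 0.2 or 2.0 mM HuminFeed-Hydroquinone (HF-HQ), a form of HF with hydroquinone, for 3 days. Each of the 9 groups had 3 arrays. The design calls the worms adults, whereas the age label of every sample reads L4 larvae. The labels do not say whether the 3 arrays of a group came from separately raised populations, so the p-values measure only the spread between these arrays. The RNA came from whole animals, in which fewer cells of a type and less RNA per cell cannot be told apart.

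The 3 experiments stood on different scales. The upper quartile of log2 expression was 7.45 to 7.53 in the HF arrays of 3 days, 7.35 to 7.42 in those of 11 days and 9.28 to 9.39 in the HF-HQ arrays. Accordingly 64 of the 91 receptor probe sets were over log2 5 on 3 or more arrays of the first experiment, 46 in the second and 82 in the third. Through the arrays of a single experiment 6 passed the filter in the first, 2 in the second and 21 in the third. The corresponding shares were 70.3%, 50.5% and 90.1% of the receptor sets, and 84.9%, 81.3% and 95.0% of all probe sets tested. Each treated group was therefore set against the untreated worms of its own experiment. Array 2 of the worms given 0.2 mM HF-HQ stood apart. It held the lowest value of the 9 HF-HQ arrays in 25 receptor probe sets (27.5%), against 19.9% of all probe sets. The lowest correlation within its group over the receptor sets was 0.955, whereas that of the other 8 groups was between 0.98 and 0.994. The ubiquitin control probes at the 5' end minus those at the 3' end gave a log2 difference of -2.58 on this array, -2.25 and -2.49 on its partners and -2.12 to -2.03 on the untreated HF-HQ arrays. Most receptor results on 0.2 mM HF-HQ are given with and without this array, and those on gene lists, markers and overlaps only with it.

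Of 33 receptors listed by role, 21 had a member. The other 12 were nhr-48, nhr-62, nhr-25, nhr-85, nhr-41, nhr-6, nhr-67, nhr-91, nhr-60, fax-1, unc-55 and odr-7. No probe set of these passed, and nhr-62 had none that matched it alone. Those without a member include the receptors best known from single neurons or from moults, such as odr-7 of the AWA olfactory neuron, unc-55 of motor neurons and nhr-25 of the moulting cycle.

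At 3 days the receptors moved upward more often than downward under HF. With 0.2 mM HF 25 receptor probe sets rose and 15 fell, which is 27.5% and 16.5% of the 91, at an adjusted p under 0.05 in limma's moderated test with Benjamini-Hochberg adjustment over all probe sets tested. Over all probe sets 26.0% rose and 32.9% fell (58.9% in either direction). With 2.0 mM HF 32 rose and 9 fell (35.2% and 9.89%), beside 28% and 32.9% of all probe sets (60.9% in either direction). The median log2 change of the receptors was 0.08 and 0.14 at the lower and the higher dose, against -0.03 and -0.02 over all probe sets. The share of risers was thus near that of the array at 0.2 mM, and the share of fallers was below it at both doses. After each array was centred on its median, 32 rose and 11 fell at 0.2 mM, so that risers made up 74.4% of the calls in place of 62.5%. Both doses were compared with the same control arrays.

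**Figure D1:**
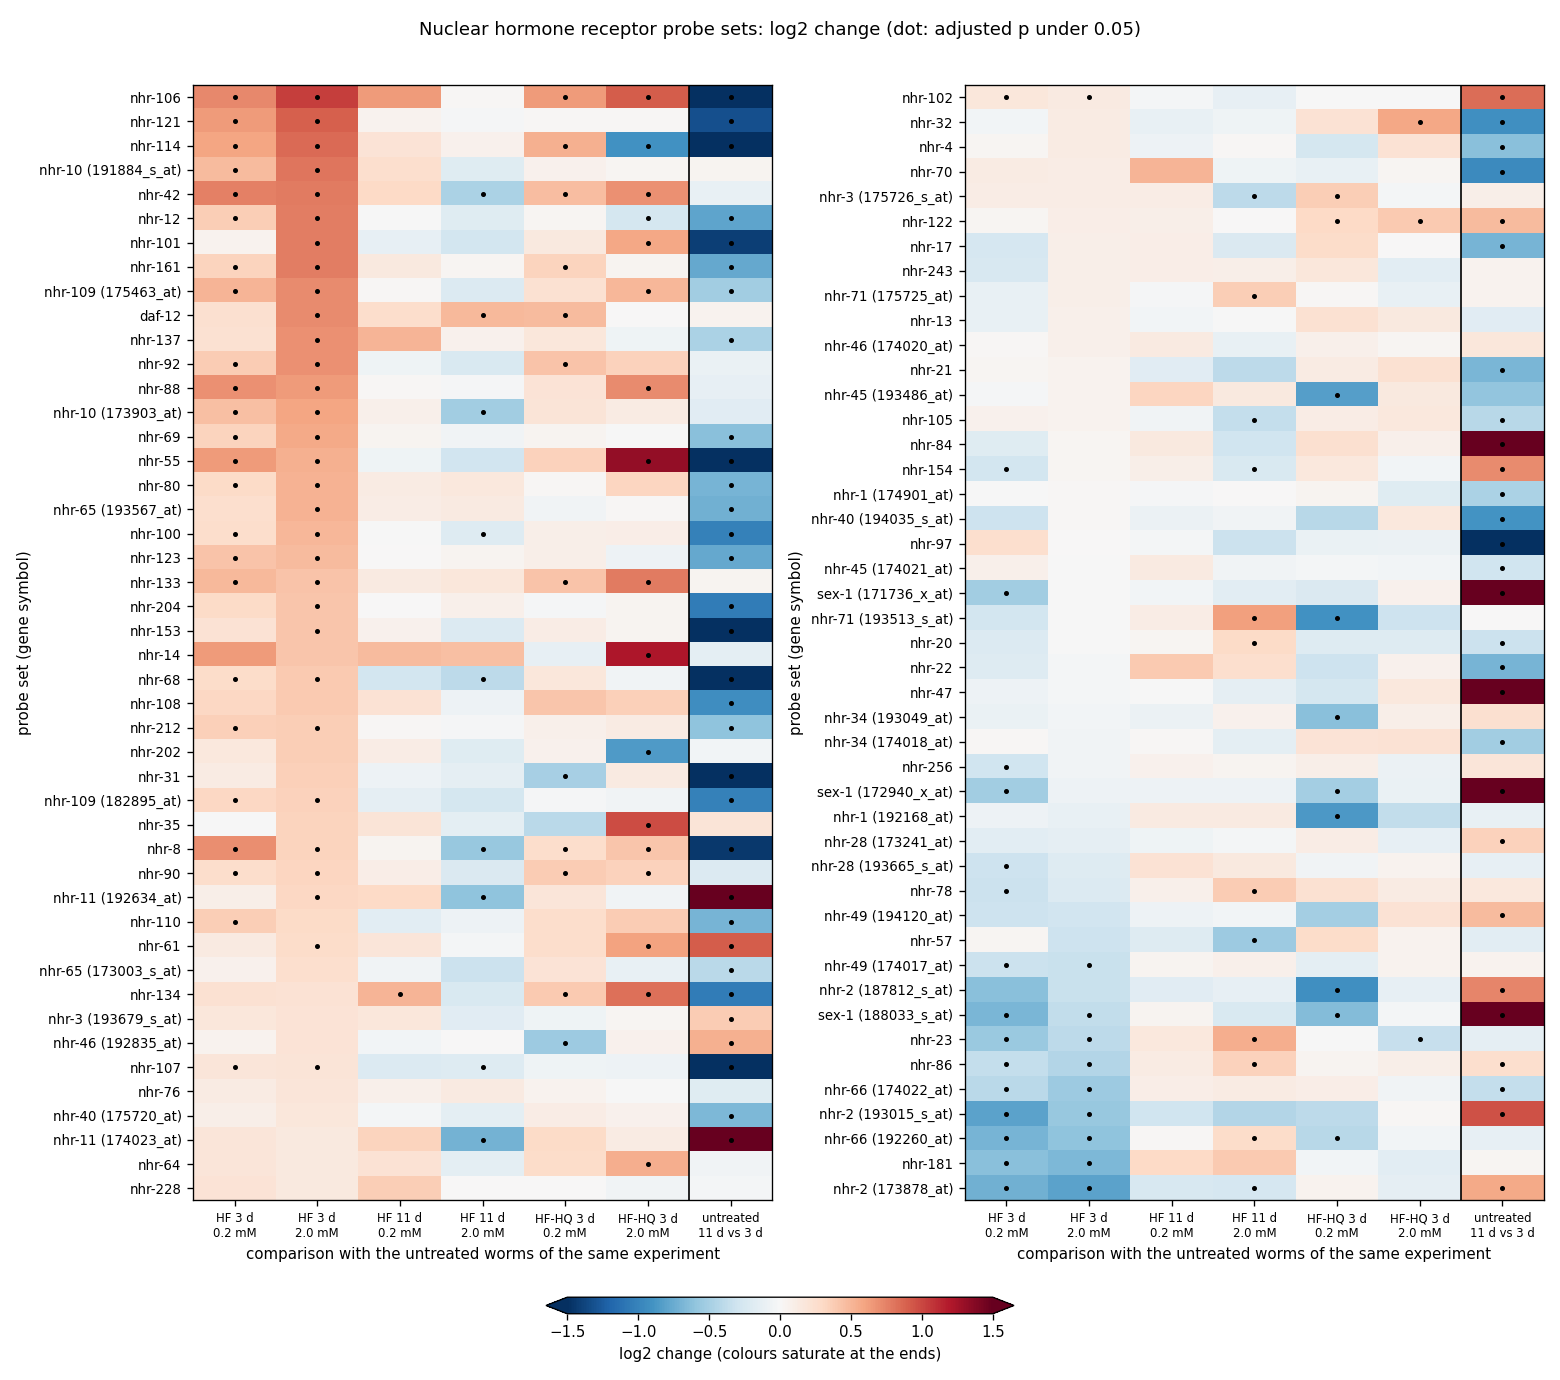
Log2 change of each of the 91 receptor probe sets (rows, in 2 columns, ordered by the change with 2.0 mM HF at 3 days) in the 6 comparisons of treated with untreated worms and in untreated worms of 11 against 3 days. Red is higher, blue is lower, colours saturate at 1.5 log2 units in either direction, and a dot marks an adjusted p under 0.05. At 3 days 25 sets rose at the lower and 32 at the higher dose of HF, and at 11 days 1 and 8 did, while over all probe sets the shares that rose were 26% and 28% at 3 days and 3.22% and 13.4% at 11 days.

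**Figure D2:**
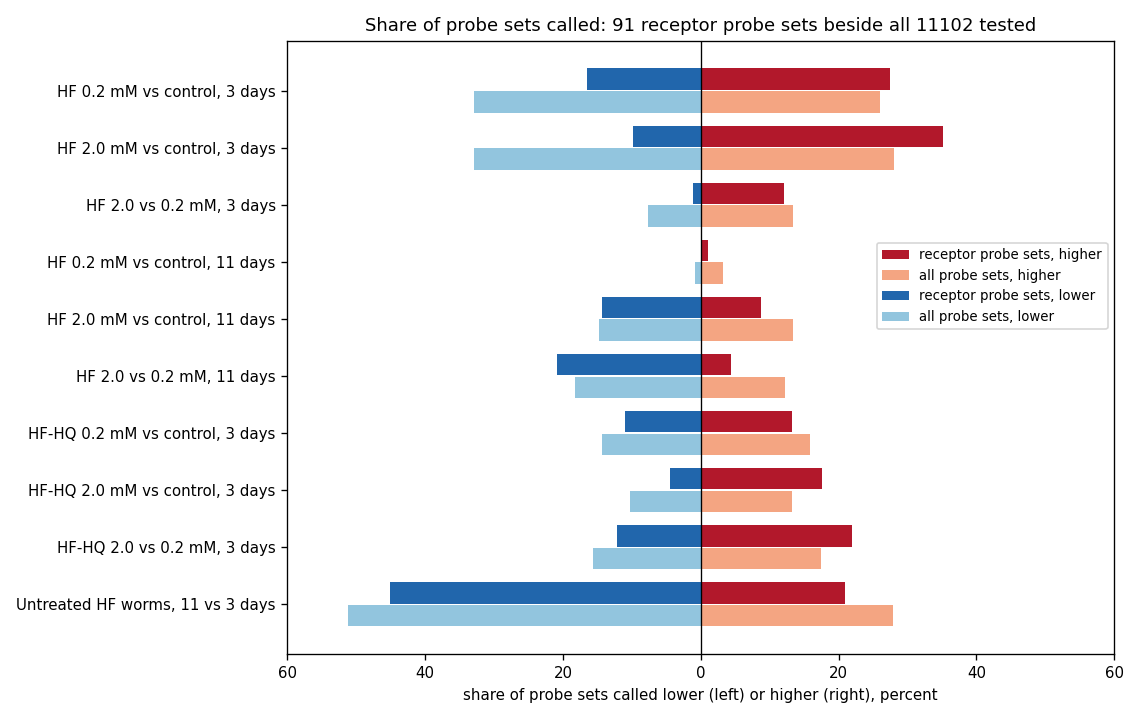
Share of probe sets called higher (right) or lower (left), in percent, for the 91 receptor probe sets (dark bars) and for all 11102 probe sets tested (light bars), in 10 comparisons. With 2.0 mM HF at 3 days 35.2% of the receptor sets rose and 9.89% fell, beside 28% and 32.9% of all probe sets.

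The sterol-related receptors were among those that rose at 3 days. nhr-8, a relative of DAF-12 that acts in cholesterol balance and in resistance to toxic compounds, read 7.04, 7.02 and 7.15 in untreated worms. It read 7.76, 7.82 and 7.73 with 0.2 mM HF and 7.32, 7.40 and 7.49 with 2.0 mM. Every treated array lay above every control array, and the lower dose lay above the higher one without overlap. The log2 change was 0.70 ± 0.10 (SE, adjusted p = 3.8e-06, limma) at 0.2 mM and 0.33 ± 0.10 (adjusted p = 0.00641) at 2.0 mM. The difference between the doses, a fall of 0.37 ± 0.10 (adjusted p = 0.0102), made nhr-8 the one receptor lower at 2.0 than at 0.2 mM.

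daf-12 encodes the receptor of the dafachronic acids, bile-acid-like hormones that decide between dauer arrest and reproductive growth. Of the 3 probe sets that match it alone 1 passed the filter, and all results on daf-12 are from that set. The others, tested without the filter, were not called with HF at either age. The levels on the set that passed were 4.66, 4.44 and 4.67 in controls, 5.15, 4.84 and 4.51 with 0.2 mM and 5.36, 5.01 and 5.52 with 2.0 mM. The arrays of 0.2 mM overlapped with the controls and those of 2.0 mM did not. The change was 0.24 ± 0.14 (adjusted p = 0.136) at 0.2 mM and 0.71 ± 0.14 (adjusted p = 0.000128) at 2.0 mM. Of 8 listed genes of hormone synthesis and sterol transport 3 were tested. With 2.0 mM daf-36, the oxygenase that starts dafachronic acid synthesis, rose by 0.64 ± 0.17 (adjusted p = 0.00208), and emb-8, the NADPH cytochrome P450 reductase, fell by 0.47 ± 0.11 (adjusted p = 0.000983).

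The receptors of fat metabolism moved in different directions at 3 days. nhr-49, the HNF4-like receptor that controls fatty acid desaturation and oxidation, read 9.79, 9.88 and 9.97 in controls on 174017_at, one of its 2 probe sets. The values were 9.57, 9.65 and 9.45 with 0.2 mM and 9.66, 9.37 and 9.61 with 2.0 mM, all of them below the lowest control. It fell by 0.32 ± 0.09 (adjusted p = 0.00389) and 0.33 ± 0.09 (adjusted p = 0.00295). Its other probe set, 194120_at, had log2 changes of -0.31 and -0.29 that did not pass the test.

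nhr-66, which pairs with NHR-49 on sphingolipid genes, was at 6.93, 6.97 and 7.09 in controls on 192260_at, at 6.26, 6.34 and 6.28 with 0.2 mM and at 6.27, 6.38 and 6.51 with 2.0 mM. The treated arrays lay below the controls at both doses. The fall was 0.70 ± 0.10 (adjusted p = 3.67e-06) at 0.2 mM and 0.61 ± 0.10 (adjusted p = 1.78e-05) at 2.0 mM, and its second set fell as well, by 0.41 and 0.55. The call of the second set at 0.2 mM was lost without array 2 of the controls or array 3 of the treated worms (adjusted p up to 0.164). nhr-80, a partner in the control of the desaturases fat-6 and fat-7, rose by 0.29 ± 0.12 (adjusted p = 0.047) and 0.52 ± 0.12 (adjusted p = 0.000785). The call at 0.2 mM was lost without array 2 or 3 of the controls or without any 1 of the treated arrays (adjusted p up to 0.146). nhr-13, a further partner of NHR-49, had changes of -0.11 and 0.08 and was not called.

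Genes whose expression depends on NHR-49 rose while its own probe set fell. Of 9 tested, 6 rose with 0.2 mM and 8 with 2.0 mM, and none fell, with medians of 0.55 and 0.94 log2 units, beside -0.03 and -0.02 over all probe sets. fat-5, a palmitoyl desaturase, rose by 1.22 ± 0.11 (adjusted p = 4.02e-09) and 1.74 ± 0.11 (adjusted p = 1.14e-11). icl-1, of the glyoxylate cycle, rose by 0.92 ± 0.08 (adjusted p = 3.13e-09) at the lower dose, and cpt-5, a carnitine palmitoyltransferase, by 1.33 ± 0.13 (adjusted p = 2.01e-08) at the higher. Of 12 coregulators of receptors tested, 7 fell with 0.2 mM (58.3%) and 5 with 2.0 mM (41.7%) and none rose, with medians of -0.46 and -0.25. The share over all probe sets was 32.9% at each dose, near that of the coregulators at 2.0 mM. sop-3, a Mediator subunit, fell by 1.05 ± 0.08 (adjusted p = 3.92e-10) and 1.28 ± 0.08 (adjusted p = 9.43e-12). mdt-15, the Mediator subunit that binds NHR-49, had changes of -0.15 and -0.04 and was not called.

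The receptors that switch on propionate breakdown rose together at 3 days. nhr-10 and nhr-68 act one after the other when propionate accumulates at low vitamin B12. On 173903_at nhr-10 was at 7.46, 7.65 and 7.52 in controls, at 8.08, 8.18 and 7.73 with 0.2 mM and at 8.22, 7.99 and 8.21 with 2.0 mM. nhr-68 was at 8.58, 8.66 and 8.67 in controls, at 9.05, 8.95 and 8.74 with 0.2 mM and at 8.96, 9.02 and 9.10 with 2.0 mM. In both genes the treated arrays lay above the controls at each dose. nhr-10 rose by 0.45 ± 0.11 (adjusted p = 0.00134) and 0.60 ± 0.11 (adjusted p = 7.65e-05), and on its second set by 0.48 and 0.80. nhr-68 rose by 0.28 ± 0.08 (adjusted p = 0.00551) and 0.39 ± 0.08 (adjusted p = 0.000241). Of the 5 enzymes of the propionate pathway 2 rose and 1 fell with 0.2 mM, and 4 rose with 2.0 mM. alh-8, a methylmalonate-semialdehyde dehydrogenase, changed most among them at 2.0 mM, by 0.52 ± 0.10 (adjusted p = 8.89e-05). acdh-1, the entry enzyme, had changes of -0.01 and 0.04 that were not called.

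nhr-114 protects the germ line on diets poor in tryptophan or vitamin B12 and turns on genes of the methionine cycle. It read 6.61, 6.80 and 6.77 in controls, 7.16, 7.29 and 7.50 with 0.2 mM HF and 7.20, 7.87 and 7.67 with 2.0 mM. No treated array came down to the control range. The rise was 0.59 ± 0.17 (adjusted p = 0.00508) and 0.85 ± 0.17 (adjusted p = 0.000171).

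The receptors with roles in the embryo, in sex determination and in moulting fell at 3 days. nhr-2, an early embryonic receptor, read 5.30, 5.21 and 5.28 in controls on 173878_at, 4.57, 4.70 and 4.37 with 0.2 mM and 4.59, 4.27 and 4.50 with 2.0 mM, with no overlap. It fell by 0.72 ± 0.09 (adjusted p = 5.72e-07) and 0.81 ± 0.09 (adjusted p = 8.28e-08). The set 193015_s_at of the same gene fell by 0.80 ± 0.17 (adjusted p = 0.000431) and 0.56 ± 0.17, and the set 187812_s_at, at -0.63 and -0.34, was not called.

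sex-1, which counts X chromosomes and represses the male-determining gene xol-1, read 5.31, 5.27 and 5.53 in controls on 188033_s_at, 4.71, 4.71 and 4.62 with 0.2 mM and 4.83, 5.07 and 5.10 with 2.0 mM. Both treated groups lay below the controls. It fell by 0.69 ± 0.16 (adjusted p = 0.000696) and 0.37 ± 0.16 (adjusted p = 0.0466), and the second call was lost when any 1 of the 6 arrays compared was left out (adjusted p up to 0.177). Its other 2 probe sets fell by 0.52 each at 0.2 mM and were not called with 2.0 mM. The call of 172940_x_at at 0.2 mM was lost without array 1 of the treated worms (adjusted p = 0.0575).

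nhr-23, a ROR-like receptor of the moulting cycle, read 7.27, 7.24 and 7.33 in controls, 6.63, 6.73 and 6.79 with 0.2 mM and 7.21, 6.62 and 6.83 with 2.0 mM. The treated arrays were lower throughout, although array 1 of 2.0 mM lay just below the lowest control. The fall was 0.56 ± 0.12 (adjusted p = 0.000525) and 0.39 ± 0.12 (adjusted p = 0.00951), and without array 2 of 2.0 mM the latter was no longer called (adjusted p = 0.0896). nhr-86, which senses a bacterial phenazine and turns on immune genes, fell by 0.36 ± 0.11 (adjusted p = 0.00573) and 0.44 ± 0.11 (adjusted p = 0.00108). Of the remaining receptors with known roles, nhr-69 rose by 0.34 and 0.57. One set of nhr-28 fell by 0.31 at 0.2 mM, a call that was lost without array 1 or 2 of either group (adjusted p up to 0.153). The muscle receptor nhr-40, nhr-31, nhr-35, nhr-57, nhr-64 and nhr-14 were not called at either dose.

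The largest rises belonged to receptors with little known function. nhr-106 was at 5.15, 5.13 and 5.13 in controls, at 5.85, 5.82 and 5.90 with 0.2 mM and at 6.17, 6.40 and 5.95 with 2.0 mM, so that the 3 groups did not overlap. The rise was 0.72 ± 0.20 (adjusted p = 0.00325) and 1.04 ± 0.20 (adjusted p = 8.53e-05), and at 2.0 mM nhr-106 was the one receptor changed by more than 2-fold. nhr-121 went from 4.57, 4.94 and 4.50 to 5.31, 5.31 and 5.30 with 0.2 mM and to 5.55, 5.56 and 5.61 with 2.0 mM, again without overlap between any of the groups. Its rise at 2.0 mM was 0.90 ± 0.08 (adjusted p = 1.57e-09). nhr-42 rose by 0.75 ± 0.14 (adjusted p = 0.000101) at 0.2 mM, from 5.29, 5.71 and 5.29 to 6.40, 6.20 and 5.94. nhr-181 fell by 0.68 ± 0.19 (adjusted p = 0.00398) at 2.0 mM, from 3.76, 3.84 and 3.96 to 3.13, 3.14 and 3.26, which are low values on the log2 scale.

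Between the 2 doses at 3 days, 11 receptor sets were higher and 1 lower at 2.0 mM, beside 13.4% and 7.65% of all probe sets (21% in either direction), for shares of 12.1% and 1.1% of the receptors. nhr-101 was higher at 2.0 than at 0.2 mM by 0.72 ± 0.16 (adjusted p = 0.00154) and the sex-1 set 171736_x_at by 0.52 ± 0.12 (adjusted p = 0.0022). daf-12 was higher by 0.46 ± 0.14 (adjusted p = 0.0189). When the fit held only the arrays of the groups compared, 5 sets were higher, and neither nhr-101 nor the sex-1 set was called. Without array 3 of 2.0 mM the count of higher sets was also 5.

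Tissue markers moved at 3 days as well. All 16 germ line markers fell at both doses, with medians of -0.48 and -0.42 log2 units, and their summed level was 14.92 to 14.95 in controls, 14.50 to 14.52 with 0.2 mM and 14.51 to 14.56 with 2.0 mM. Of 12 intestinal markers 10 rose with 0.2 mM and 11 with 2.0 mM, and the summed level went from 14.95 to 15.04 in controls to 15.39 to 15.47 and 15.50 to 15.54. The 8 sperm markers rose with 0.2 mM and fell with 2.0 mM, with sums of 14.60 to 14.70, 15.09 to 15.14 and 13.49 to 13.63 in controls and at the 2 doses. Of 9 muscle markers 7 rose at each dose, of 8 neuronal markers 3 and 6 rose, and of 8 hypodermal markers 2 rose and 1 fell at each dose. No germ line or intestinal marker was under log2 5 in any group of this experiment. The part of these tissues in the changes of the receptors was not tested.

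**Figure D3:**
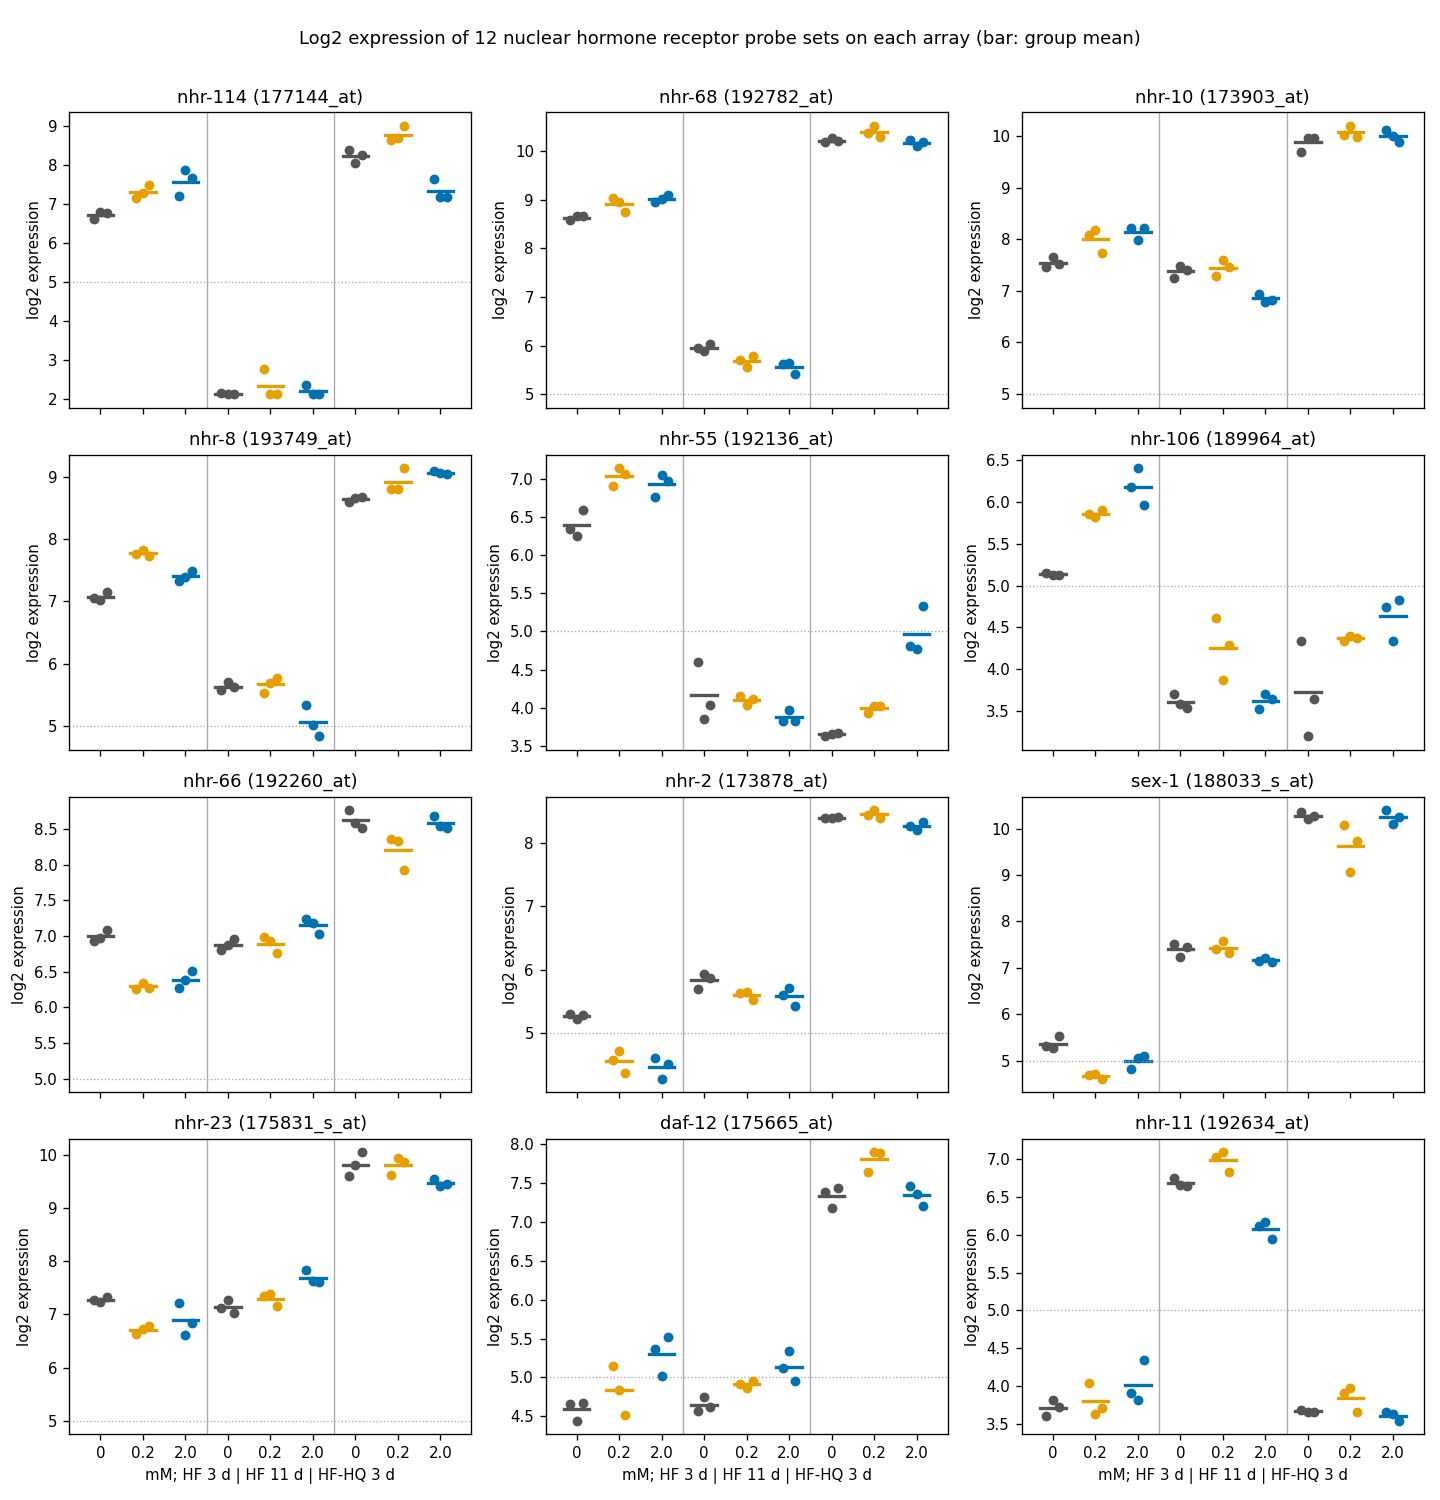
Log2 expression (y axis, a separate scale in each panel) of 12 receptor probe sets on each of the 27 arrays, by dose in mM and experiment (HF 3 days, HF 11 days and HF-HQ 3 days from left to right). Points are arrays, short bars are group means, grey is untreated, orange 0.2 mM and blue 2.0 mM, and the dotted line marks log2 5 where it lies in range. nhr-114 was at 6.61 to 6.80 in untreated worms of 3 days and at 2.13 to 2.14 in those of 11 days.

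At 11 days the lower dose of HF left few traces in the receptors. With 0.2 mM nhr-134 was the only receptor set called, beside 3.22% of all probe sets called higher and 0.784% called lower (4% in either direction). An unadjusted p under 0.05 was found for 14 of the 91. After centring of the arrays 1 rose and 1 fell, and after quantile normalization 2 rose and 2 fell, so that the share of higher calls moved to 50%. nhr-134 read 3.85, 3.89 and 4.22 in controls and 4.48, 4.42 and 4.60 with 0.2 mM, which does not overlap, and rose by 0.51 ± 0.12 (adjusted p = 0.0167). The call was lost without array 1 or 2 of the controls or array 3 of the treated worms (adjusted p up to 0.104), and in a fit of the compared arrays alone (adjusted p = 0.0637).

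With 2.0 mM HF at 11 days 8 receptor sets rose and 13 fell (8.79% and 14.3%), beside 13.4% and 14.8% of all probe sets (28.3% in either direction), and the median change of the receptors was -0.07. After each array was centred on its median 7 rose and 19 fell, and risers made up 26.9% of the calls in place of 38.1%. Without array 2 or array 3 of the treated worms 5 rose, and without array 3 of the controls or of the treated worms 8 fell.

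Several receptors that had risen at 3 days were lower at 11 days with the same dose. nhr-8 was at 5.57, 5.70 and 5.62 in controls of 11 days and at 5.34, 5.01 and 4.83 with 2.0 mM, with no overlap, and fell by 0.57 ± 0.10 (adjusted p = 0.000225). nhr-10 went from 7.24, 7.48 and 7.40 to 6.94, 6.79 and 6.83 on 173903_at and fell by 0.52 ± 0.11 (adjusted p = 0.00134). nhr-68 went from 5.95, 5.88 and 6.02 to 5.62, 5.64 and 5.41 and fell by 0.40 ± 0.08 (adjusted p = 0.000963). On these sets every treated array was below every control array. The second nhr-10 set, 191884_s_at, had a change of -0.18 with overlapping arrays and was not called (adjusted p = 0.231, limma). With 0.2 mM nhr-8 had a change of 0.04 and nhr-10 of 0.07 on 173903_at, with overlapping arrays. On 191884_s_at nhr-10 had a change of 0.25 without overlap, which was not called (adjusted p = 0.304). nhr-68 had one of -0.28, with all 3 treated arrays below the controls, and it was not called (adjusted p = 0.0596).

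Of the 32 receptor sets that rose with 2.0 mM at 3 days, 7 were among the 13 that fell at 11 days, which is 21.9% of the former and 53.8% of the latter. They belong to nhr-10, nhr-100, nhr-107, nhr-11, nhr-42, nhr-68 and nhr-8. In the opposite direction, nhr-23, nhr-66 and nhr-86 fell at 3 days and rose at 11 days, 3 of the 9 fallers (33.3%) and of the 8 risers (37.5%). These 2 comparisons have separate arrays and controls. Over all probe sets 27.6% of those that rose at 3 days fell at 11 days, which is 52.1% of those that fell there, and 22.8% of those that fell at 3 days rose at 11 days (55.8% of those that rose there). The shares of the receptors were thus near those of the array for the first of these overlaps. daf-12 alone rose at both ages, 1 of the 32 risers at 3 days (3.12%) and of the 8 at 11 days. Over all probe sets these shares were 5.96% and 12.4%. nhr-2 alone fell at both, 1 of the 9 fallers at 3 days (11.1%) and of the 13 at 11 days (7.69%). The shares of all probe sets that fell at both were 5.75% and 12.7%. With 1 set each, these 2 overlaps do not set the receptors apart from the array. The fall of nhr-2 at 11 days, 0.26 on 173878_at, was not called without single arrays of either group (adjusted p up to 0.19).

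nhr-23 was at 7.11, 7.28 and 7.03 in controls of 11 days and at 7.83, 7.63 and 7.60 with 2.0 mM, all above the controls, and rose by 0.55 ± 0.12 (adjusted p = 0.00227). daf-12 went from 4.57, 4.75 and 4.62 to 5.12, 5.34 and 4.95 and rose by 0.49 ± 0.14 (adjusted p = 0.0108), a call that was lost without array 2 of the treated worms (adjusted p = 0.0642). nhr-71, a receptor of little known function, rose by 0.61 ± 0.15 (adjusted p = 0.00392), from 4.70, 5.23 and 5.18 to 5.56, 5.44 and 5.95 on 193513_s_at, and was not called in a fit of the compared arrays alone (adjusted p = 0.0663). nhr-86 rose by 0.35 ± 0.11 (adjusted p = 0.0172) and nhr-66 by 0.27 ± 0.10 on 192260_at (adjusted p = 0.0451). Both lost the call without single arrays, nhr-86 without array 3 of the treated worms (adjusted p = 0.0602) and nhr-66 without either of 2 controls or 2 treated arrays (adjusted p up to 0.149).

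The largest fall at 11 days was that of nhr-11. Its set 192634_at read 6.75, 6.66 and 6.64 in controls, 7.03, 7.08 and 6.83 with 0.2 mM and 6.12, 6.16 and 5.94 with 2.0 mM, so that the higher dose lay below both other groups. It fell by 0.61 ± 0.12 (adjusted p = 0.000633), and 174023_at of the same gene fell by 0.70 ± 0.15 (adjusted p = 0.00172). nhr-57, a target of the hypoxia factor HIF-1, fell by 0.54 ± 0.15 (adjusted p = 0.0109) and was not called without array 3 of the controls or of the treated worms (adjusted p up to 0.0819).

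Between the doses at 11 days 4 receptor sets were higher and 19 lower at 2.0 mM (4.40% and 20.9%), beside 12.2% and 18.3% of all probe sets (30.5% in either direction). After quantile normalization of all 27 arrays 8 were higher and 11 lower, and the share of higher calls moved from 17.4% to 42.1%. nhr-11 differed most, being lower at 2.0 than at 0.2 mM by 1.04 on one set (log2 change -1.04 ± 0.15, adjusted p = 2.89e-05) and by 0.91 on the other (log2 change -0.91 ± 0.12, adjusted p = 6.5e-06). nhr-71 was higher by 0.50 ± 0.15 (adjusted p = 0.0141) and nhr-23 by 0.39 ± 0.12 (adjusted p = 0.0196), and each of these calls was lost without array 3 of 0.2 mM or 1 of the arrays of 2.0 mM, array 3 for nhr-71 and array 1 for nhr-23 (adjusted p up to 0.108 for nhr-71 and 0.0981 for nhr-23). Without array 3 of 0.2 mM 1 set was higher, and without array 1 or array 3 of 0.2 mM 12 were lower.

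Fewer of the NHR-49 dependent genes were called at 11 days, as was the case over all probe sets. None of the 9 genes dependent on NHR-49 was called with 0.2 mM, and fat-6, a stearoyl desaturase, was the only one called with 2.0 mM, with a fall of 0.18 ± 0.05 (adjusted p = 0.0085). nhr-49 itself had changes of 0.04 and 0.08 on 174017_at. Of the 5 propionate enzymes 2 fell with 0.2 mM, and 1 rose and 1 fell with 2.0 mM. Over all probe sets 3.22% rose and 0.784% fell with 0.2 mM, and 13.4% and 14.8% with 2.0 mM. acdh-1 fell by 0.59 ± 0.08 (adjusted p = 3.35e-05) and 0.32 ± 0.08 (adjusted p = 0.00327). hphd-1 fell by 0.49 ± 0.06 (adjusted p = 2.21e-05) with 0.2 mM and was not called with 2.0 mM. hach-1 rose by 0.24 ± 0.06 (adjusted p = 0.00768) with 2.0 mM. daf-36 fell by 0.67 ± 0.17 (adjusted p = 0.00442) with 2.0 mM. Of the 12 coregulators none was called with 0.2 mM and 2 rose with 2.0 mM, among them cbp-1, a histone acetyltransferase, by 0.28 ± 0.10 (adjusted p = 0.0468).

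At 11 days 3.22% of all probe sets rose and 0.784% fell with 0.2 mM, and 13.4% and 14.8% with 2.0 mM. Of the 16 germ line markers 1 rose with 0.2 mM and 12 rose with 2.0 mM, with a median of 0.36 at the higher dose. Their summed level was 14.69 to 14.73 in controls and 14.96 to 15.02 with 2.0 mM. Of 12 intestinal markers 2 rose with 0.2 mM, and 2 rose and 3 fell with 2.0 mM. The summed level of the intestinal markers was 14.33 to 14.39 in controls and 14.28 to 14.32 with 2.0 mM, and 2 of them were under log2 5 in all groups of 11 days. Of 8 sperm markers 5 rose at each dose, from a sum of 8.90 to 9.16 in controls to 9.84 to 9.91 and 9.87 to 10.22. Of 9 muscle markers 4 rose with 0.2 mM, and 5 rose and 2 fell with 2.0 mM. Of 8 neuronal markers 3 fell and of 8 hypodermal markers 3 rose with 2.0 mM. The part of these tissues in the changes of the receptors was not tested.

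The difference in response between the ages was tested as an interaction. For 0.2 mM HF 11 receptor sets responded higher and 14 lower at 11 than at 3 days (12.1% and 15.4%), beside 26.1% and 16.6% of all probe sets (42.7% in either direction). After centring of the arrays the counts were 6 and 18, and the share of higher calls moved from 44.0% to 25.0%. For 2.0 mM HF 9 responded higher and 31 lower (9.89% and 34.1%), beside 32.7% and 29.3% of all probe sets (62% in either direction). The median difference of the receptors was -0.28, against 0.02 over all probe sets. After centring of the arrays the counts were 9 and 43.

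nhr-42 had the largest difference, a response lower at 11 days by 1.25 (log2 difference -1.25 ± 0.20, adjusted p = 1.57e-05). It rose by 0.78 at 3 days and fell by 0.47 at 11 days, from 5.44, 5.21 and 5.32 to 4.85, 4.83 and 4.86. nhr-10 followed on 173903_at with a difference of -1.12 ± 0.16 (adjusted p = 3.14e-06). In the other direction, nhr-181 differed by 1.06 ± 0.27 (adjusted p = 0.00173) and nhr-23 by 0.94 ± 0.18 (adjusted p = 9.16e-05). nhr-8 differed by -0.90 ± 0.14 (adjusted p = 1.23e-05), nhr-68 by -0.79 ± 0.11 (adjusted p = 4.98e-06) and nhr-66 by 0.88 ± 0.14 (adjusted p = 1.63e-05). For daf-12 the difference was -0.22, which did not pass the test. At 0.2 mM nhr-181 differed by 0.93 ± 0.27 (adjusted p = 0.0084), sex-1 by 0.73 ± 0.22 on 188033_s_at (adjusted p = 0.0118), nhr-55 by -0.70 ± 0.21 (adjusted p = 0.0102) and nhr-88 by -0.67 ± 0.19 (adjusted p = 0.00719).

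**Figure D4:**
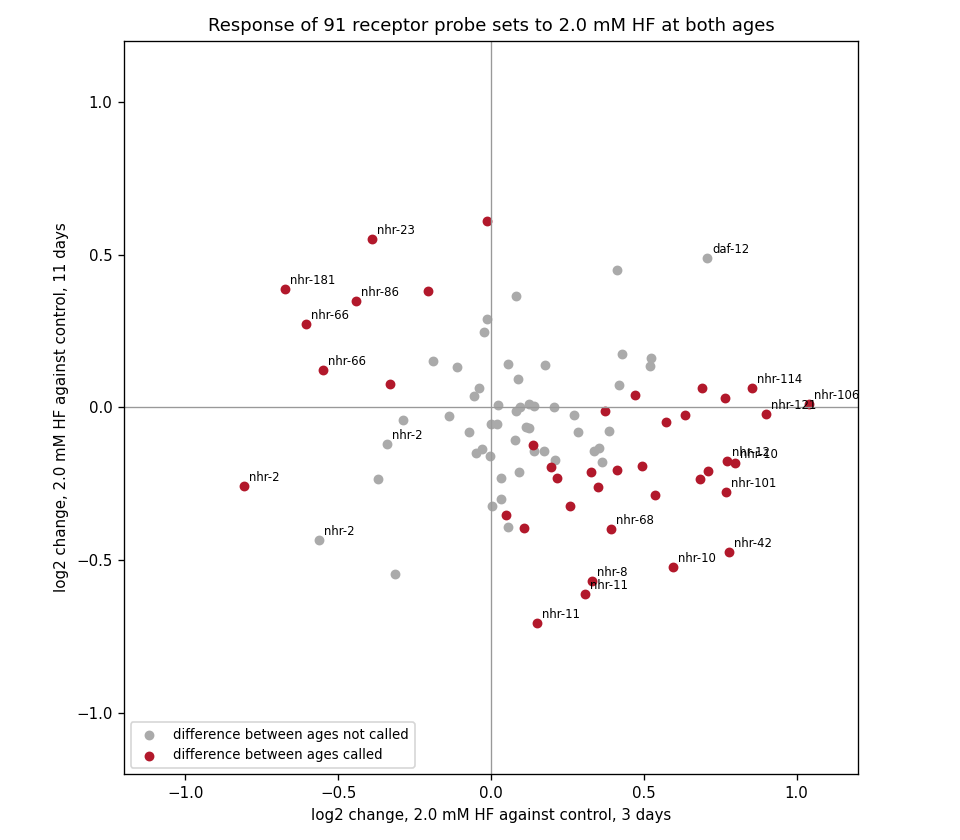
Log2 change of the 91 receptor probe sets with 2.0 mM HF against untreated worms at 3 days (x axis) and at 11 days (y axis), 1 point per set, with names beside a selection. Red points are the 40 sets whose response differed between the ages at an adjusted p under 0.05, of which 31 lie on the side of a lower response at 11 days. nhr-42, nhr-10 and nhr-8 lie at the lower right, nhr-23, nhr-66 and nhr-86 at the upper left.

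Untreated worms of the 2 ages differed in 60 of the 91 receptor sets. Of the 91, 19 were higher and 41 lower at 11 days (20.9% and 45.1%), beside 27.9% and 51.2% of all probe sets (79.1% in either direction). Each age was a separate experiment with its own value distribution, so age and experiment cannot be told apart, and the median of all probe sets lay at -0.24. That median was -0.07 after centring of the arrays and 0.04 after quantile normalization, and that of the receptors was -0.17, -0.00 and -0.01. After quantile normalization 26 receptor sets were higher and 35 lower, and the share of higher calls moved from 31.7% to 42.6%.

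nhr-114 had the largest fall, from 6.61, 6.80 and 6.77 at 3 days to 2.14, 2.13 and 2.14 at 11 days. All arrays of 11 days were close to the lowest values on these arrays, whose 5th percentile was 2.04 to 2.07, so that the change of -4.59 ± 0.17 (adjusted p = 7.76e-17) ends near the floor of the scale. It was -5.26 after quantile normalization. nhr-68 fell by 2.68 ± 0.08 (adjusted p = 1.44e-18), from 8.58, 8.66 and 8.67 to 5.95, 5.88 and 6.02, and its change was -2.44 after quantile normalization. nhr-10, which acts before nhr-68, was not called, with changes of -0.17 and 0.05 on its 2 sets. All 5 enzymes of the propionate pathway fell, with a median of -2.07. Over all probe sets 51.2% fell, with a median of -0.24. hphd-1, a transhydrogenase of the pathway, fell by 3.30 ± 0.06 (adjusted p = 2.7e-22) and ech-6, an enoyl-CoA hydratase, by 2.11 ± 0.06 (adjusted p = 1.51e-19).

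nhr-31, which controls vacuolar ATPase genes in the excretory cell, fell by 2.60 ± 0.15 (adjusted p = 4.67e-13), from 8.14, 8.03 and 7.86 to 5.58, 5.32 and 5.32, and its change was -2.40 after quantile normalization. nhr-55, which passed the filter through the HF arrays of 3 days alone, fell by 2.23. nhr-8 fell by 1.44 ± 0.10 (adjusted p = 7.82e-12) and nhr-80 by 0.70 ± 0.12 (adjusted p = 1.8e-05). The muscle receptor nhr-40 fell on both sets, by 0.67 and 0.90, and nhr-69 by 0.63. One set of nhr-66, 174022_at, fell by 0.36 (adjusted p = 0.027) and was not called after quantile normalization, at -0.15 (adjusted p = 0.337). daf-12 was at 4.66, 4.44 and 4.67 at 3 days and at 4.57, 4.75 and 4.62 at 11 days, 2 overlapping groups with a change of 0.06 that was not called. daf-36 fell by 1.60 ± 0.17 (adjusted p = 8.68e-09). ncr-1, a cholesterol transporter, fell by 1.03 ± 0.19 (adjusted p = 4e-05).

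Higher at 11 days were nhr-11, nhr-84 and sex-1. nhr-11 went from 3.60, 3.81 and 3.73 to 6.75, 6.66 and 6.64 on 192634_at and rose by 2.97 ± 0.12 (adjusted p = 3.01e-16). nhr-84 went from 3.08, 3.33 and 3.08 to 5.32, 5.30 and 5.29 and rose by 2.14 ± 0.12 (adjusted p = 3.1e-13). sex-1 went from 5.05, 5.31 and 5.27 to 7.22, 7.34 and 7.42 on 172940_x_at and rose by 2.11 ± 0.17 (adjusted p = 8.31e-11). In all 3 the ages did not overlap, and the rises were 3.47, 2.76 and 2.35 after quantile normalization. The nhr-11 set averaged 3.71 to 4.02 in the HF groups of 3 days and 3.61 and 3.85 in the treated HF-HQ groups. It thus passed the filter through the arrays of 11 days alone, where it was high, so the filter favoured a rise of this set with age. The other 2 sets of sex-1 rose by 1.73 and 2.03, and the 3 sets of nhr-2 by 0.57, 0.74 and 0.96. The call of the nhr-2 set 187812_s_at was lost without array 1 of the controls of 11 days (adjusted p = 0.0834). nhr-86 rose by 0.25 and one set of nhr-49 by 0.48, both of which lost the call without single arrays (adjusted p up to 0.0991 and 0.0935).

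Among genes dependent on NHR-49 4 rose and 5 fell with age. Over all probe sets 27.9% rose and 51.2% fell. acdh-2, an acyl-CoA dehydrogenase, fell by 3.81 ± 0.10 (adjusted p = 9.33e-20) and fat-5 rose by 2.61 ± 0.11 (adjusted p = 3.93e-16). Of the 12 coregulators 5 rose and 4 fell, the largest rises being those of let-19, a Mediator kinase module subunit, at 0.93 ± 0.13 (adjusted p = 6.4e-07) and gei-8, a corepressor, at 0.93 ± 0.19 (adjusted p = 0.000112). Of 12 intestinal markers 9 fell and 3 rose, with a median of -1.72, and of 16 germ line markers 7 fell and 3 rose. All 8 sperm markers fell, with a median of -5.56, and 5 of them were under log2 5 in untreated worms of 11 days, against none at 3 days. Of 9 muscle markers 8 fell, of 8 hypodermal markers 6 fell and 1 rose, and of 8 neuronal markers 3 fell and 4 rose. The part of these tissues in the changes of the receptors was not tested.

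**Figure D5:**
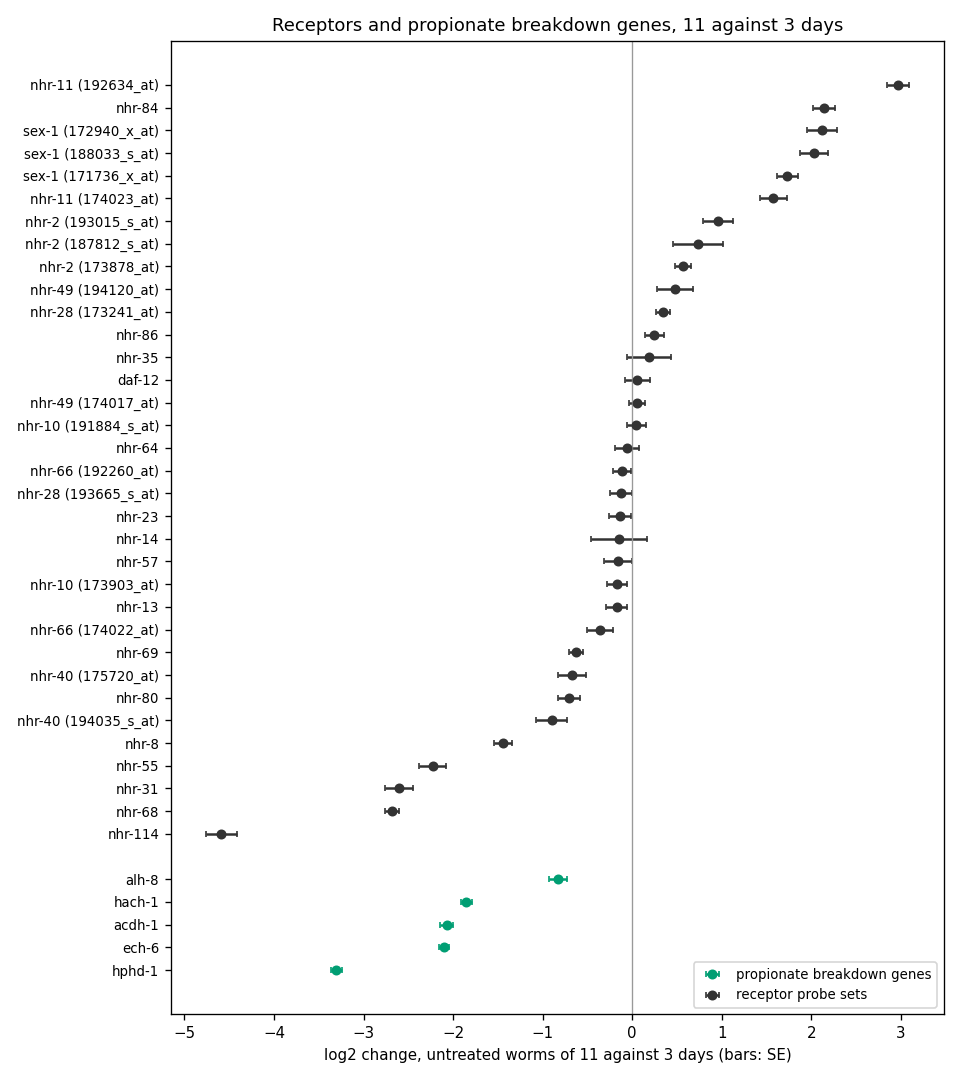
Log2 change of untreated worms of 11 against 3 days (x axis) for the probe sets of receptors with a listed role together with nhr-11, nhr-84 and nhr-55 (black), and for 5 enzymes of propionate breakdown (green). Points are fitted changes and bars are standard errors from 3 arrays per group. nhr-114 lies at -4.59 and nhr-11 at 2.97, and all 5 enzymes lie below 0.

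HF-HQ at 3 days moved 22 receptor sets at the lower dose and 20 at the higher. At 0.2 mM HF-HQ 12 receptor sets rose and 10 fell (13.2% and 11.0%), beside 15.9% and 14.3% of all probe sets (30.2% in either direction). Without array 2 of that group 4 rose and 5 fell, all of them also called with the array, and in a fit of the compared arrays alone 1 rose and 1 fell. Without array 2 or array 3 of the controls 7 or 5 rose, and without array 1 of the treated worms 16 fell. The counts for 0.2 mM thus rest on single arrays.

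nhr-114 was at 8.40, 8.07 and 8.27 in HF-HQ controls and at 8.63, 8.69 and 9.01 with 0.2 mM. The treated arrays lay above the controls, and it rose by 0.53 ± 0.17 (adjusted p = 0.0225). Without array 2 the rise was 0.58 (adjusted p = 0.0429), and the call was lost without array 2 of the controls or array 3 of the treated worms (adjusted p up to 0.0984). daf-12 went from 7.39, 7.17 and 7.44 to 7.64, 7.89 and 7.88, also without overlap, and rose by 0.47 ± 0.14 (adjusted p = 0.0135), or by 0.43 (adjusted p = 0.0625) without array 2. Its call was also lost without array 2 of the controls (adjusted p = 0.069). nhr-42 rose by 0.47 ± 0.14 (adjusted p = 0.0167), or by 0.34 (adjusted p = 0.123) without array 2, and it was not called without array 3 of the controls either (adjusted p = 0.0919). nhr-8 rose by 0.27 ± 0.10 (adjusted p = 0.0452), or by 0.33 (adjusted p = 0.0427) without array 2, and its call was lost without array 3 of the treated worms or any 1 of the controls (adjusted p up to 0.242).

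The falls at 0.2 mM HF-HQ show the weight of array 2. The nhr-2 set 187812_s_at read 10.13, 9.60 and 9.90 in controls and 9.55, 7.91 and 9.39 with 0.2 mM, and nhr-45 on 193486_at read 5.53, 5.35 and 5.38 and then 5.29, 3.42 and 5.09. The 7.91 and the 3.42 are those of array 2. The nhr-2 set fell by 0.92 ± 0.28 (adjusted p = 0.0151) with the array and had a change of -0.40 (adjusted p = 0.14) without it. For nhr-45 the fall of 0.82 ± 0.29 (adjusted p = 0.0364) became a change of -0.24 (adjusted p = 0.344). The call of the nhr-2 set was also lost without array 1 of the controls (adjusted p = 0.0621), and that of nhr-45 without any 1 of the controls (adjusted p up to 0.0907). nhr-71 read 8.49, 8.06 and 8.43 in controls and 7.51, 7.18 and 7.55 with 0.2 mM on 193513_s_at, with all 3 treated arrays below the controls. Its fall of 0.91 ± 0.15 (adjusted p = 0.000101) was 0.80 (adjusted p = 0.00123) without array 2. nhr-66 fell by 0.41 ± 0.10 (adjusted p = 0.0035) on 192260_at, or by 0.48 (adjusted p = 0.00364) without array 2. sex-1 fell by 0.65 ± 0.16 (adjusted p = 0.00362) on 188033_s_at, or by 0.37 (adjusted p = 0.0282) without it. nhr-31 fell by 0.49 ± 0.15 (adjusted p = 0.0195) and, without it, had a change of -0.32 (adjusted p = 0.16), and its call was lost without array 1 or 2 of the controls too (adjusted p up to 0.106). Several of these falls were seen on 1 set of a gene only. The sets 175725_at of nhr-71, 174022_at of nhr-66, 174021_at of nhr-45 and 173878_at of nhr-2 were not called at this dose. Of the 16 receptors with several sets, 9 had 1 set called but not another.

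At 2.0 mM HF-HQ 16 receptor sets rose and 4 fell (17.6% and 4.40%), beside 13.2% and 10.3% of all probe sets (23.5% in either direction). The medians were 0.05 for the receptors and -0.02 over all probe sets. These counts do not involve the 0.2 mM arrays except through the shared estimate of the spread.

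nhr-55, a receptor of little known function, was at 3.63, 3.66 and 3.67 in controls, at 3.93, 4.02 and 4.02 with 0.2 mM and at 4.81, 4.77 and 5.33 with 2.0 mM, so that the 3 groups did not overlap. It rose by 1.32 ± 0.15 (adjusted p = 3.33e-07) at 2.0 mM, the largest rise among the receptors in any comparison with untreated worms. Most of these nhr-55 values were under log2 5, which is low on the HF-HQ arrays, whose upper quartile was 9.28 to 9.39. nhr-14, an HNF4-like receptor that links iron uptake to immunity, went from 4.98, 5.06 and 4.82 to 6.12, 6.30 and 6.07 and rose by 1.21 ± 0.31 (adjusted p = 0.00578). nhr-35, an HNF4-like receptor, went from 6.22, 6.60 and 6.66 to 7.61, 7.41 and 7.39 and rose by 0.98 ± 0.24 (adjusted p = 0.0042). In both genes no treated array overlapped with a control. nhr-64 rose by 0.55 ± 0.13 (adjusted p = 0.00313) and nhr-8 by 0.42 ± 0.10 (adjusted p = 0.00311), from 8.60, 8.66 and 8.67 to 9.09, 9.06 and 9.04.

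nhr-114 fell at 2.0 mM HF-HQ, to 7.64, 7.18 and 7.18, below every control and every array of 0.2 mM. The fall was 0.91 ± 0.17 (adjusted p = 0.000295). nhr-202 went from 6.31, 6.23 and 6.42 to 5.71, 5.58 and 5.13 and fell by 0.85 ± 0.18 (adjusted p = 0.000825). nhr-23 fell by 0.35 ± 0.12 (adjusted p = 0.045), from 9.59, 9.80 and 10.04 to 9.54, 9.41 and 9.44, and leaving out an array of either group other than array 1 of the controls ended the call (adjusted p up to 0.253). nhr-12, named here after its values were seen, was the remaining receptor that fell, by 0.27. daf-12, nhr-10, nhr-68, nhr-49, nhr-66, nhr-2, sex-1 and nhr-86 were not called at this dose.

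Between the doses of HF-HQ 20 receptor sets were higher and 11 lower at 2.0 mM (22% and 12.1%), beside 17.5% and 15.7% of all probe sets (33.2% in either direction). Without array 2 of 0.2 mM the counts were 13 and 5, and in a fit of the compared arrays alone 5 and 5. Without array 2 or array 3 of 2.0 mM 6 or 5 were lower. After quantile normalization 13 were higher and 13 lower, and the share of higher calls moved from 64.5% to 50%. nhr-35 was higher at 2.0 mM by 1.38 ± 0.24 (adjusted p = 0.00011) and nhr-14 by 1.33 ± 0.31 (adjusted p = 0.00204). Array 2 of 0.2 mM read 5.16 for nhr-35 and 3.62 for nhr-14, whereas its partners read 6.64 and 6.47, and 5.44 and 5.44. Without it the differences were 0.92 (adjusted p = 8.7e-05) and 0.73 (adjusted p = 0.00751). nhr-114 was lower by 1.45 (log2 difference -1.45 ± 0.17, adjusted p = 7.72e-07), and by 1.49 (log2 difference -1.49, adjusted p = 4.17e-06) without array 2. nhr-202 was lower by 0.91 (log2 difference -0.91 ± 0.18, adjusted p = 0.000302).

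Genes dependent on NHR-49 moved in both directions under HF-HQ. With 0.2 mM 3 of the 9 rose and 1 fell (33.3% and 11.1%), beside 15.9% and 14.3% of all probe sets. With 2.0 mM 3 rose and 3 fell (33.3% each), beside 13.2% and 10.3% of all probe sets. fat-7, a stearoyl desaturase, rose by 0.97 ± 0.10 (adjusted p = 1.03e-06) and 2.55 ± 0.10 (adjusted p = 1e-14). acs-2, an acyl-CoA synthetase of mitochondrial fatty acid oxidation, fell by 0.59 ± 0.19 (adjusted p = 0.0226) and 1.81 ± 0.19 (adjusted p = 1.14e-07). nhr-49 itself was not called on either set, and nhr-80, at 0.01 and 0.33, was not called either. None of the propionate enzymes was called with 0.2 mM and 4 of 5 fell with 2.0 mM, among them hphd-1 by 0.38 ± 0.06 (adjusted p = 5.71e-05). Of the 12 coregulators mdt-15 alone fell with 0.2 mM, by 0.93 ± 0.14 (adjusted p = 6.4e-05), and rgr-1, a Mediator subunit, alone fell with 2.0 mM, by 0.22 ± 0.07 (adjusted p = 0.0172). emb-8 fell by 0.97 ± 0.11 (adjusted p = 2.41e-06) with 0.2 mM. The values of these other genes at 0.2 mM include array 2 of that group.

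Under HF-HQ 15.9% of all probe sets rose and 14.3% fell with 0.2 mM, and 13.2% and 10.3% with 2.0 mM. Of 16 germ line markers 7 fell with 0.2 mM and 5 with 2.0 mM. Their summed level was 16.95 to 16.99 in controls, 16.68 to 16.89 with 0.2 mM and 16.89 to 16.93 with 2.0 mM. Of 12 intestinal markers 3 rose and 1 fell with 0.2 mM, and 9 rose and 1 fell with 2.0 mM, with summed levels of 16.13 to 16.25 in controls and of 16.26 to 16.34 and 16.68 to 16.71 at the 2 doses. Of 8 sperm markers 5 rose with 0.2 mM and none was called with 2.0 mM. Of 8 neuronal markers 4 and 5 rose at the 2 doses, of 9 muscle markers 1 rose with 0.2 mM, and of 8 hypodermal markers 2 rose with 0.2 mM and 3 fell with 2.0 mM. The marker values at 0.2 mM include array 2 of that group. The part of these tissues in the changes of the receptors was not tested.

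Set beside HF at the same age, in separate arrays with separate controls, HF-HQ moved part of the same receptors. Of the 32 sets that rose with 2.0 mM HF 10 rose with 2.0 mM HF-HQ, which is 31.2% of the former and 62.5% of the 16 latter. Over all probe sets the shares were 24.9% and 52.8%. The shared receptors were nhr-101, nhr-106, nhr-109, nhr-133, nhr-42, nhr-55, nhr-61, nhr-8, nhr-88 and nhr-90. nhr-114 and nhr-12 rose with 2.0 mM HF and fell with 2.0 mM HF-HQ. They were 2 of the 32 risers with HF (6.25%) and 2 of the 4 fallers with HF-HQ. For this opposite direction the shares over all probe sets were 9.01% and 24.5%. The share of the risers was thus no higher than that of the array, and the share of the fallers rests on 4 sets. At 0.2 mM 8 sets were shared by the 25 risers with HF (32.0%) and the 12 with HF-HQ (66.7%), beside 32.5% and 53.3% over all probe sets. Without array 2 of 0.2 mM HF-HQ only 4 sets rose there, and the overlap was not counted again without it.

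The difference between the 2 preparations was also tested as an interaction. The HF-HQ values spread over a wider range than the HF values, so these differences compare changes on different scales. At 0.2 mM 7 receptor sets responded higher and 13 lower to HF-HQ (7.69% and 14.3%), beside 24.4% and 15.8% of all probe sets (40.2% in either direction). Without array 2 of 0.2 mM HF-HQ the counts were 8 and 8, of which 6 and 7 were called with the array too, and without array 1 of the HF-HQ controls 8 responded lower. At 2.0 mM 8 responded higher and 17 lower (8.79% and 18.7%), beside 27.6% and 20.6% of all probe sets (48.2% in either direction). After quantile normalization these counts were 4 and 19, and the share of higher calls moved from 32.0% to 17.4%. Without array 3 of the HF-HQ controls 5 responded higher.

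nhr-114 differed most at 2.0 mM, with a response lower to HF-HQ by 1.77 (log2 difference -1.77 ± 0.24, adjusted p = 3.62e-06). nhr-202 differed by -1.21 ± 0.25 (adjusted p = 0.000351) and daf-12 by -0.70 ± 0.20 (adjusted p = 0.00516). The nhr-2 set 173878_at responded higher to HF-HQ by 0.67 ± 0.13 (adjusted p = 0.000141), with a fall of 0.81 under HF and a change of -0.14 under HF-HQ. nhr-55 responded higher by 0.78 ± 0.21 (adjusted p = 0.00387), and the difference was 0.32 and not called after quantile normalization. nhr-68 differed by -0.44 ± 0.11 (adjusted p = 0.00306), nhr-66 by 0.56 ± 0.14 on 192260_at (adjusted p = 0.00214) and nhr-86 by 0.53 ± 0.15 (adjusted p = 0.00594). For nhr-8 the difference was 0.09, which did not pass the test. At 0.2 mM the nhr-2 set 173878_at differed by 0.77 ± 0.13 (adjusted p = 4.92e-05), or by 0.74 (adjusted p = 0.000166) without array 2, and nhr-8 by -0.43 ± 0.14 (adjusted p = 0.0189), or by -0.37 (adjusted p = 0.0485) without it.

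For 16 receptors several probe sets passed the filter. In none of the 14 comparisons were sets of 1 gene called in opposite directions. They were called in part, 1 set but not another, for 3 and 5 of these genes with 0.2 and 2.0 mM HF at 3 days, for 9 and 1 with 0.2 and 2.0 mM HF-HQ, for 13 between the doses of HF-HQ and for 8 with age. In the other 8 comparisons it was 0 to 7 of them. Of the 91 member sets 27 carry a suffix of the array design for probes that can match several transcripts, among them all 3 sets of sex-1.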

How the data were processed

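Whole worms were profiled on 27 arrays in 9 groups of 3. The deposited values are log2 expression per probe set, which the authors obtained with GCRMA, per the submitters' processing notes. Its version, and whether the 3 experiments were normalized together, are not given in the sources used here. The value distributions differ between experiments. Precision is limited by the 3 arrays per group.

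From the 22625 probe sets 77 control sets were removed, and 11102 with a log2 value over 5 on at least 3 arrays were tested. Of these, 10533 match 1 gene in the platform annotation, 378 several and 191 none. Names were checked against the RefSeq gene table. limma 3.58.1 (R 4.3.3) estimated a mean per group over all 27 arrays, with moderated tests and Benjamini-Hochberg adjustment over all probe sets tested. Calls are at an adjusted p of 0.05. The code was tested on simulated data. Figures were drawn with matplotlib 3.10.9 in Python 3.11.15. The sequences of the receptors were not used here.

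The receptors and the gene and marker lists were chosen with earlier results of these data known. Named were, for each comparison of treated with untreated worms and of ages, the 3 largest rises and falls among called sets with groups that do not overlap, 2 each way for the other 7 comparisons, every receptor listed by role, and the 2 largest changes of each gene list. A few receptors were added for comparison between ages or preparations. Alternatives were 2 other scalings, no filter, a filter within the experiment, a variance trend, a fit of the compared arrays alone, a replicate block, 1 probe set per gene and leaving out each array.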

Additional observations from a re-analysis of the deposited data

Results flagged for a closer look

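The difference between 2 responses passed the test in the following receptors, which are the largest in each direction among those called. From 3 to 11 days the response to 0.2 mM HF differed by 0.93 for nhr-181, 0.73 for sex-1, -0.70 for nhr-55 and -0.67 for nhr-88 on the log2 scale. nhr-181 was under log2 5 on all 18 HF arrays. For 2.0 mM HF the difference between the ages was 1.06 for nhr-181, 0.94 for nhr-23, -1.25 for nhr-42 and -1.12 for nhr-10.

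Between HF-HQ and HF the response to 0.2 mM differed by 0.77 for nhr-2, 0.56 for nhr-23, -0.79 for nhr-1 and -0.63 for nhr-71. For nhr-2, nhr-1 and nhr-71 these are values of single sets, and no other set of these genes was called. Without array 2 of 0.2 mM HF-HQ, the value for nhr-1 was -0.41 (adjusted p = 0.14, limma) and that for nhr-71 -0.51 (adjusted p = 0.0586). Both lost the call without other single arrays too, and nhr-23 lost it without array 1 of the HF-HQ controls (adjusted p = 0.0502). For 2.0 mM the difference was 0.78 for nhr-55, 0.67 for nhr-2, -1.77 for nhr-114 and -1.21 for nhr-202.

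Some receptor probe sets outside the comparisons were also called, under treatment in most cases less often than over all probe sets. A set that matches both ZC239.1 and nhr-88 rose by 1.48 ± 0.20 (adjusted p = 4.49e-06, limma without the filter) with 2.0 mM HF-HQ, and the signals of the 2 genes cannot be separated on it. Among the 211 receptor sets under the filter, tested without it, 6 were called higher and 0 lower with 0.2 mM HF at 3 days, and 11 higher and 1 lower with 2.0 mM. At 11 days 2 were called higher and 2 lower with 0.2 mM HF, and 1 higher and 6 lower with 2.0 mM. With 2.0 mM HF-HQ 8 were called higher and 90 lower. As shares of the 211, the higher calls were 2.84%, 5.21%, 0.948%, 0.474% and 3.79% in these 5 comparisons. Over all probe sets without the filter, 14%, 14.3%, 2.03%, 5.96% and 8.13% were called higher. With HF the lower calls were 0%, 0.474%, 0.948% and 2.84% in the same order, beside 15.4%, 16.2%, 1.37% and 6.91% over all probe sets. The 90 lower calls with 2.0 mM HF-HQ are 42.7%, beside 29.9% over all probe sets. Of the 98 called in either direction there, 79 were under log2 3, and the median size of these 98 changes was 0.06.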

How the results depend on the processing

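No called change of a named receptor turned its direction under any alternative. Changes that were not called could: with age, after quantile normalization, nhr-23 went from -0.14 to 0.02 and nhr-64 from -0.06 to 0.19. Most counts of called receptor sets stayed within 1.5 times the reported ones. The exceptions, with higher and lower meaning the direction of the call, follow. With the compared arrays alone, 5 sets were higher between the doses at 3 days, 2 with 0.2 mM and 5 with 2.0 mM HF at 11 days. With 0.2 mM HF-HQ 1 was higher and 1 lower in that fit, with 2.0 mM HF-HQ 2 were lower, and between its doses 5 were higher and 5 lower. It also gave 7 lower for the difference of HF-HQ from HF at 0.2 mM and 13 higher at 2.0 mM. Quantile normalization gave 2 higher and 2 lower with 0.2 mM HF at 11 days, 8 higher and 11 lower between the doses at that age, 13 higher between the doses of HF-HQ and 4 higher for HF-HQ minus HF at 2.0 mM. Centring gave 1 lower with 0.2 mM HF at 11 days and 6 higher for the difference between ages at 0.2 mM. Without the filter 5 were higher with 2.0 mM HF at 11 days, 7 lower between the doses of HF-HQ, and 4 higher and 6 lower for HF-HQ minus HF at 0.2 mM. The filter within the experiment left 0 higher with 0.2 mM HF at 11 days, 13 lower with age, and 7 and 12 lower for the differences between ages. For comparisons of ages it keeps only sets over log2 5 on at least 3 arrays at both ages. By its construction it removes sets that fell to low values with age and sets that rose from low values. nhr-11 on 192634_at and nhr-84, both under log2 5 at 3 days, are among those it removes. With 1 probe set per gene 9 were lower with 0.2 mM HF at 3 days, 4 with 0.2 mM HF-HQ and 8 for HF-HQ minus HF at 0.2 mM, and 11 were higher with age, from fewer sets tested. For the others the cause was not tested.

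Leaving out 1 array at a time gave 20 to 24 higher and 12 to 14 lower with 0.2 mM HF at 3 days, 28 to 33 and 8 to 9 with 2.0 mM, and 5 to 10 and 1 to 1 between these doses. At 11 days it gave 0 to 3 and 0 to 1 with 0.2 mM, 5 to 8 and 8 to 12 with 2.0 mM, and 1 to 3 and 12 to 17 between doses. For HF-HQ it gave 4 to 14 and 5 to 16, 14 to 16 and 3 to 4, and 13 to 25 and 5 to 11. With age it gave 17 to 19 and 40 to 41. For the differences between ages it gave 8 to 11 and 12 to 16 at 0.2 mM, and 8 to 10 and 28 to 35 at 2.0 mM. For HF-HQ minus HF it gave 5 to 9 and 8 to 12 at 0.2 mM, and 5 to 10 and 15 to 19 at 2.0 mM.

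The labels do not say whether same-numbered arrays were raised or processed together. Deviations of same-numbered arrays correlated above 0.1 in 3 of 27 pairs and below 0 in 16. The correlation was 0.43 for array 1 of the HF-HQ controls and of 2.0 mM HF-HQ. With the replicate block 0 receptor sets were higher with 0.2 mM HF at 11 days, and called sets went from 21 to 18 with 2.0 mM at that age and from 20 to 16 for HF-HQ minus HF at 0.2 mM.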

Other observations

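Of the 33 receptors listed by role, those without a member had group means under 5 on the log2 scale wherever a probe set matched them alone. The highest group mean was log2 4.98 for nhr-48, 4.74 for nhr-25 and 4.46 for nhr-6, and it was 2.19 for unc-55, 2.13 for odr-7 and 2.03 for fax-1. Among the 73 receptor genes, 4 pairs of members are direct neighbours in the RefSeq gene table: nhr-122 with nhr-92, nhr-107 with nhr-42, nhr-154 with nhr-153, and nhr-102 with nhr-84. With age nhr-154 rose by 0.71 and nhr-153 fell by 1.56, and nhr-84 rose by 2.14 and nhr-102 by 0.83.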
